A study of Mus musculus with 6 samples.

Results

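Immediate early genes are transcribed within minutes of a stimulus, before any new protein has to be made. Mitogen-activated protein kinases switch them on through transcription factors that are already bound at their promoters, among them SRF, the ETS factors and CREB. FOS and JUN proteins join as pairs through leucine zippers to form AP-1, while JUN proteins can also pair with each other and FOS proteins need a JUN partner. In marrow these genes are known for responses to cytokines and stress and for roles in myeloid and B lymphoid cells. The genes described here are 10 of the 17173 in the deposited table, taken from it by symbol: the FOS family members Fos, Fosb and Fosl2, the JUN family members Jun, Junb and Jund, the zinc finger factor Egr1, the stress-induced factor Atf3, the nuclear immediate early protein Ier2, and Dusp1, a phosphatase that switches MAP kinases off.

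The study sequenced total RNA of bone marrow from mice of a model of multiple myeloma, which is a cancer of plasma cells, in 3 libraries whose genotype label is control and 3 labelled Che-1 silencing (called Che-1-labelled below). The gene for Che-1 is Aatf, and the protein binds RNA polymerase II. All 6 libraries carry the source name VkCHE mice, and the titles call the labelled groups Control and vkche. Libraries were made in triplicate, per the labels' protocols. The sources used here do not give strain, age, treatment, how silencing was achieved, or whether replicates were separate animals, so p-values measure the spread between libraries, which may be technical in part.

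Aatf, the targeted gene, had 896, 396 and 421 normalized counts in the control libraries, against 1986, 3808 and 1223 with the Che-1 silencing label. That is higher and not lower (log2 difference 1.98, limma adjusted p = 0.00214), but the median tested gene was higher too, by 1.54 log2 units. With the median gene's level subtracted, Aatf differed by 0.45 (SE 0.19, limma adjusted p = 0.143), and the groups overlapped. The authors' own adjusted p for Aatf was 0.186. Directions below therefore belong to the labelled libraries and not to a measured loss of Aatf. In the authors' deposited table the mean of Xist was 5.64 for control and 68685 for Che-1 silencing, and since this RNA comes from the inactive X chromosome of females, the group contrast and sex cannot be told apart. Gene reads solved for each library ran from 11317166 to 24899535, and reads of the 10 genes together from 4094 to 11841 per library. Control libraries 2 and 3 lay near each other (mean chi-square per gene 2.14, where sampling noise gives about 1), control library 1 lay away from both (50.1 and 53.2), and Che-1-labelled library 3 lay away from libraries 1 and 2 (166 and 128). In bulk tissue, fewer cells of a type and less RNA per cell cannot be told apart.

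Promoter sequence is shown first for Fos, Dusp1 and Junb, since Fos and Junb had the lowest and highest differences of the 10 on both scales and Dusp1 has the full element described here. Each run is the 250 bases before the start site in RefSeq (build GRCm38.p6), read 5′ to 3′ on the gene's strand. Fos lies at chr12:85473640-85473889 on the plus strand, Dusp1 at chr17:26508473-26508722 and Junb at chr8:84978749-84978998, both on the minus strand. Capitals mark TGACGTCA (the cAMP response element that CREB binds), its core TGACG and the TATA box TATAAA, on either strand.
Fos: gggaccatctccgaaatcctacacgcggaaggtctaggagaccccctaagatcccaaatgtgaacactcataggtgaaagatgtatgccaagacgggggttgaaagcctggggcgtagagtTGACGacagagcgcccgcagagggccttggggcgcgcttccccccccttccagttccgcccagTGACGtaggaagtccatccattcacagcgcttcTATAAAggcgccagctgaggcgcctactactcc
Dusp1: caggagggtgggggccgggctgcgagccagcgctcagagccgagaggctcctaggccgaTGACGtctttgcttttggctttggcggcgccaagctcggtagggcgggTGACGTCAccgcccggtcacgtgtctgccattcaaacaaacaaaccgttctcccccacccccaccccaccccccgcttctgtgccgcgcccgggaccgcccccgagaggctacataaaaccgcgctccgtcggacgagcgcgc
Junb: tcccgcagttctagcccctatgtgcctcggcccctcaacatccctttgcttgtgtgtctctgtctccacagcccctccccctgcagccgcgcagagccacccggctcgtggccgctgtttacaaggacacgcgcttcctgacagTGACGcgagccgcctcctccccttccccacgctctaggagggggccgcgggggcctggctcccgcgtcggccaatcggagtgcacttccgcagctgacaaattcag
Fos has the core element at 129 and at 66 bases before the start and a TATA box at 33, whereas Dusp1 has a full element at 143 with a further core element at 191. Junb has 1 core element, at 106. RefSeq gave such a window for 8 of the 10 genes, and Egr1 and Ier2 were not matched. The core element was in 5 of the 8 windows (Fos, Fosb, Junb, Atf3 and Dusp1) and in 17.8% of all 32851 windows. The full element, which contains the core element on both strands, was in 1 of 8 and in 1.55% of all. The TATA box was in 1 of 8 and in 12.4% of all, and GCGNGGGCG, a site of the EGR family, in 2 of 8 (Fosb and Fosl2) and in 4.70% of all. The AP-1 site TGANTCA and the CArG box of SRF were in 0 of 8, against 6.75% and 1.47% of all windows. The search covered exact letters in these windows alone. Sites farther upstream, after the start or with other letters were not counted, so 0 of 8 does not mean that the genes lack such sites. Such matches are descriptions of letters and not measured binding.

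Levels are given on a pair of scales. The spike-in scale is the deposited one, reads divided by factors from the spike-in counts (normalized counts). Those factors rest on 70 synthetic ERCC spike-in RNAs and 2 summary rows. The relative scale is the log2 level of a gene, log2(normalized count + 1), minus that of the median gene of the same library. On the spike-in scale the median of 14604 tested genes was 1.54 log2 units above control in the Che-1-labelled libraries. A gene that kept its spike-in level therefore lost ground to the median gene.

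None of the 3 FOS genes passed the test on the spike-in scale. Fos, which encodes the classical FOS protein, had 143, 269 and 322 normalized counts in control libraries 1, 2 and 3, and 233, 271 and 204 in Che-1-labelled libraries 1, 2 and 3. The groups overlap fully: control library 1 is the lowest of the 6 and control library 3 the highest. The log2 difference was 0.021 (SE 0.53, limma adjusted p = 0.973).

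Fosl2, whose protein FRA-2 lacks the strong activation domain of FOS, was also close to equal on average. It had 275, 578 and 636 normalized counts in the control libraries and 386, 663 and 554 in those labelled Che-1 silencing, a log2 difference of 0.16 (SE 0.55, limma adjusted p = 0.796). Control library 1 was again the lowest. Fosb, a FOS paralog, was scarce, with 13, 41 and 74 reads in the control libraries, against 36, 28 and 11 in the others. Its normalized counts were 15.2, 19.3 and 35.1 against 44.4, 67.2 and 14.1, so that Che-1-labelled library 3 held the lowest value and libraries 1 and 2 the highest pair. Its log2 difference of 0.66 (SE 0.66) did not pass (limma adjusted p = 0.361), and without Che-1-labelled library 3 it was 1.29 (limma adjusted p = 0.034; alternatives ranged from 0.034 to 0.804).

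All 3 JUN genes rose on the spike-in scale, where 66.7% of all tested genes did, and Jun rose by less than the median gene. Junb, which competes with JUN and restrains myeloid growth, had 1355, 1377 and 1520 normalized counts in the control libraries. In Che-1-labelled libraries 1, 2 and 3 it had 6356, 8480 and 2931. Each of the latter exceeded every control value, and library 3 lay well under the other pair. The log2 difference was 1.93 (SE 0.59, limma adjusted p = 0.00326).

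Jund, the most constitutive JUN protein, followed Junb closely. It had 1475, 1017 and 1194 normalized counts in the control libraries, against 4504, 5570.0 and 2254 in the Che-1-labelled libraries (log2 difference 1.66, SE 0.58, limma adjusted p = 0.00967). Jun, the founding partner of FOS, had 371, 452 and 531 against 711, 1186 and 1401 (log2 difference 1.24, SE 0.56, limma adjusted p = 0.0397). The groups do not overlap for either gene. Here Che-1-labelled library 3 was the highest for Jun, while for Junb and Jund it was the lowest of its group.

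The remaining genes split as well. Atf3, a bZIP repressor induced by stress, had 65.5, 48.4 and 71.7 normalized counts in the control libraries, against 118, 240.1 and 241 in the others, a rise of 1.62 log2 units (SE 0.55, limma adjusted p = 0.00709) without overlap. Egr1, a zinc finger factor of growth factor responses, had 312, 322 and 344 in the control libraries, close to each other. In the Che-1-labelled libraries it had 1139, 1585 and 293. It was thus high in libraries 1 and 2, while library 3 lay under all controls. Its call (log2 difference 1.31, SE 0.55, limma adjusted p = 0.0277) rests on a spread shared with other genes, and without Che-1-labelled library 3 the log2 difference was 2.04 (limma adjusted p = 0.000136; alternatives ranged from 0.000136 to 0.218).

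Ier2 had 414, 332 and 351 normalized counts in the control libraries, against 553, 852 and 575 in the others. Those values do not overlap, yet the difference of 0.83 log2 units (SE 0.55) did not pass (limma adjusted p = 0.163). Dusp1, which ends MAP kinase signals, had 365, 498 and 602 against 564, 848 and 543, with overlap and a log2 difference of 0.41 (SE 0.55, limma adjusted p = 0.496).

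In all, 5 of the 10 genes rose per spike-in and 0 fell, against 66.7% of all tested genes that rose and 0.746% that fell. The groups did not overlap in 5 genes (Jun, Junb, Jund, Atf3 and Ier2), all of them higher, against 68% of all tested genes that were higher and 0.438% that were lower without overlap. The share of rises among the 10 is therefore no larger than the background, and the median difference was 1.03 log2 units against 1.54 for all genes. In the authors' deposited table none of the 10 had an adjusted p of at most 0.05 (lowest 0.186, for Junb), and 0.0475% of its genes with an adjusted p were called higher and 0.0297% lower. With each gene's own spread in place of moderation, all 5 calls ended (limma adjusted p from 0.0727 to 0.190), as did every rise among all genes (0%). Left out 1 at a time, control libraries 1, 2 and 3 left 3, 1 and 1 rises (66.5%, 22% and 24.1% of all genes), Che-1-labelled libraries 1, 2 and 3 left 2, 3 and 5 (38.7%, 41.9% and 75.6%, the 5 without Jun and with Fosb), and summing control libraries 2 and 3 left 1 (23.5%), Junb.

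**Figure D1:**
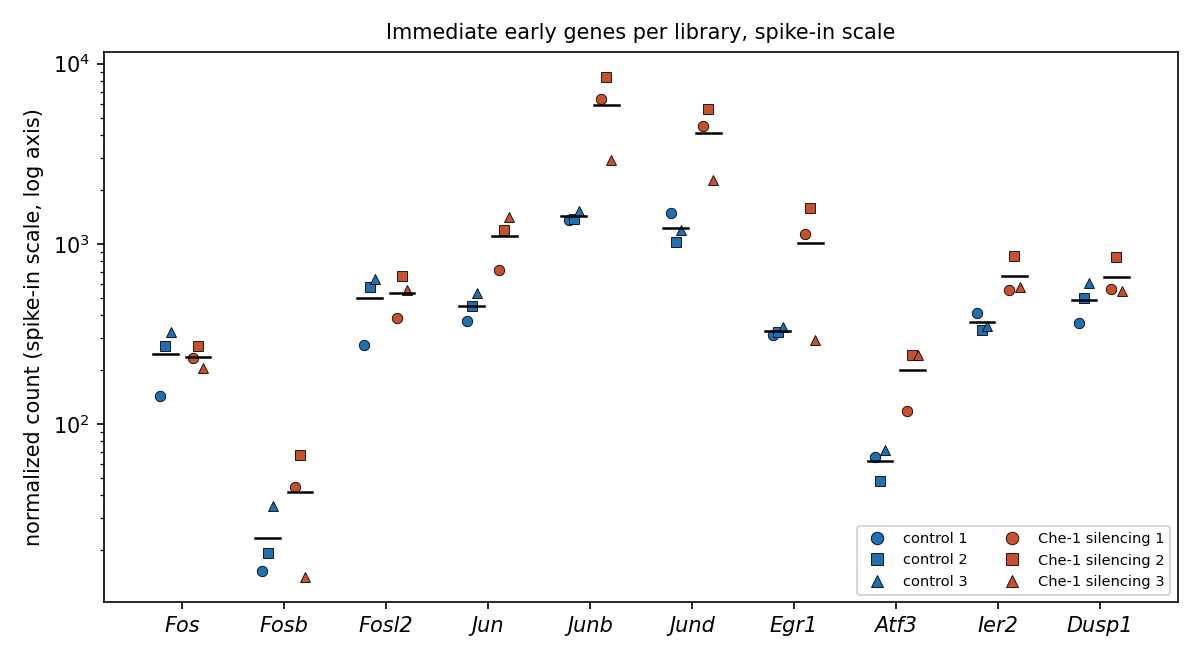
Normalized counts (log axis) of the 10 genes in the 3 control libraries (blue) and the 3 libraries labelled Che-1 silencing (orange), marker shapes giving replicates 1 to 3 and short lines the group means. Fos and Fosl2 overlap between groups, whereas Junb sits between 1355 and 1520 in the controls and between 2931 and 8480 in the others.

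Set against the median gene of each library, 7 of the 10 genes had a lower mean in the Che-1-labelled libraries and 3 a higher one, where 49.2% of all tested genes had a lower one, and none passed the test over all genes. Fos stood at -1.43, 0.19 and 0.29 log2 units from the median gene in control libraries 1, 2 and 3. In Che-1-labelled libraries 1, 2 and 3 it stood at -1.78, -2.29 and -1.42. Control libraries 2 and 3 are thus well above the other 4, and control library 1 lies just under Che-1-labelled library 3, as the plot of relative levels shows. The difference was -1.51 log2 units (SE 0.50, limma adjusted p = 0.101), lower than that of all but 6.37% of tested genes.

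Dusp1 and Fosl2 had the same shape. Dusp1 was at -0.085, 1.07 and 1.19 in the control libraries, against -0.51, -0.65 and -0.014 in the others, a difference of -1.12 (SE 0.37, limma adjusted p = 0.102). Fosl2 was at -0.49, 1.29 and 1.27 against -1.05, -1.004 and 0.013 (difference -1.37, SE 0.55, limma adjusted p = 0.136). In both genes control libraries 2 and 3 were the highest, and control library 1 fell among or next to the Che-1-labelled libraries.

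Ier2 was the 1 gene of the 10 whose groups did not overlap on the relative scale, against 19.7% of tested genes that were lower and 20.5% that were higher without overlap. It was at 0.097, 0.49 and 0.41 in the control libraries, against -0.54, -0.64 and 0.069 in the others. The difference of -0.70 log2 units (SE 0.23) did not pass (limma adjusted p = 0.101), and the gap between the groups was as narrow as 0.097 against 0.069. Fosb differed by -0.87 (SE 0.54, limma adjusted p = 0.274).

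The JUN genes had smaller differences from the median gene, and none passed. Jund ranged from 1.93 to 2.49, with values of 1.93, 2.10 and 2.17 in the controls and 2.49, 2.07 and 2.04 in the others (difference 0.13, SE 0.16, limma adjusted p = 0.567). Junb was at 1.80, 2.54 and 2.52 against 2.98, 2.67 and 2.42 (difference 0.40, SE 0.25, limma adjusted p = 0.275). Jun differed by -0.29 (SE 0.50) and was highest in Che-1-labelled library 3, at 1.35, while libraries 1 and 2 were at -0.18 and -0.17.

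Egr1 and Atf3 pulled apart in Che-1-labelled library 3. Egr1 was at -0.31, 0.45 and 0.38 in the control libraries, against 0.50, 0.25 and -0.90 in the others (difference -0.22, SE 0.41, limma adjusted p = 0.697). Atf3 was at -2.55, -2.26 and -1.87 against -2.75, -2.46 and -1.18 (difference 0.093, SE 0.45, limma adjusted p = 0.886). Library 3 therefore held the lowest relative Egr1 and the highest relative Atf3 and Jun of all 6 libraries.

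Of all tested genes, 0% were called higher and 0.0274% lower on the relative scale, and the median of the 10 genes was -0.50 against 0.015 for all. Unadjusted p-values were under 0.05 for 4 of the 10 (Fos, Fosl2, Ier2 and Dusp1, all lower) and for 17.3% of tested genes in that direction. The calls changed without Che-1-labelled library 3: then Fos, Fosl2, Ier2 and Dusp1 were lower at an adjusted p of at most 0.05 (limma, log2 differences -1.71, -1.71, -0.92 and -1.30), against 25.2% of tested genes called lower and 27.8% higher. DESeq2 on all 6 libraries called these 4 lower too, against 11.5% of tested genes called lower and 15.6% higher, and edgeR called 0 of the 10.

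**Figure D2:**
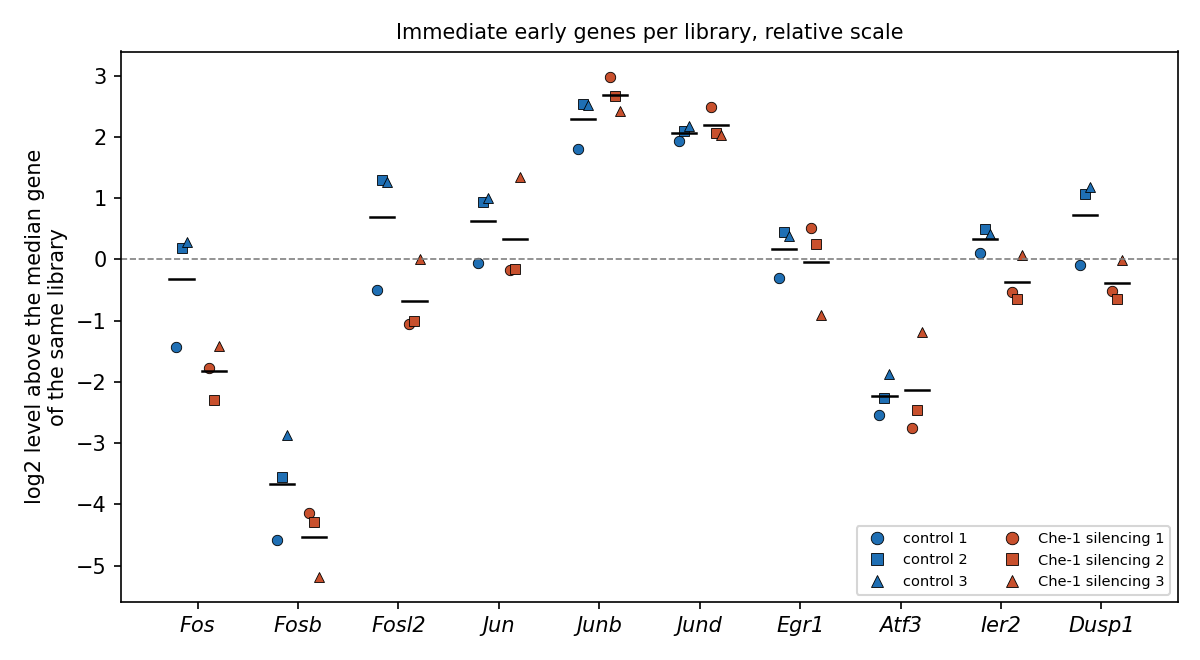
Log2 level above the median gene of the same library (dashed line at 0) for the 10 genes, with libraries and group means drawn as colours, shapes and short lines. Junb and Jund stay between 1.80 and 2.98 units above the median gene in all libraries, and Fos, Fosl2 and Dusp1 are highest in control libraries 2 and 3.

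**Figure D3:**
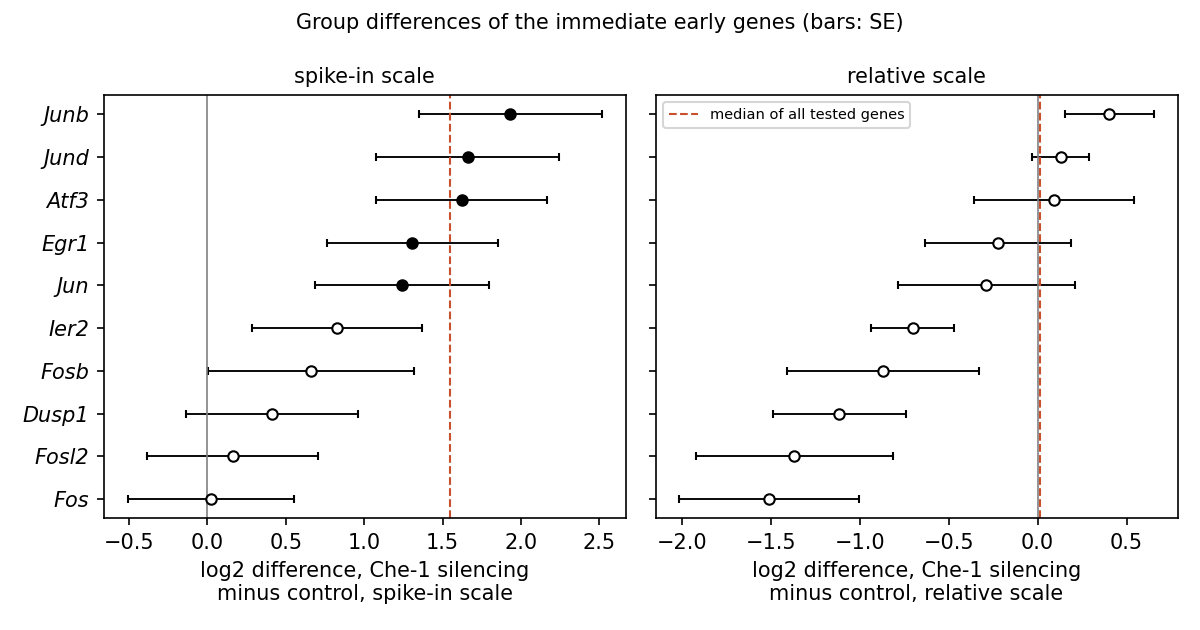
Group differences (Che-1 silencing minus control, log2 units) with their SE on the spike-in scale (left) and the relative scale (right), filled points having a limma adjusted p of at most 0.05 and the dashed line marking the median of all tested genes. The log2 differences run from Fos (0.021 and -1.51) to Junb (1.93 and 0.40), and filled points occur in the left panel alone.

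Ratios of reads between genes of the same library need no scale, and they give the change between FOS and JUN partners directly. For each read of Junb there were 0.105, 0.195 and 0.212 reads of Fos in control libraries 1, 2 and 3. In the Che-1-labelled libraries the ratio was 0.0367, 0.0320 and 0.0697. The groups do not overlap, and the geometric mean ratio was 3.76-fold higher in the control libraries. An exact two-sided permutation test of 3 against 3 libraries cannot go below p = 0.10, so ratios are given with no test.

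Fos against Jund gave 0.0968, 0.264 and 0.270 in the control libraries, against 0.0518, 0.0487 and 0.0906 in the others, or 3.11-fold on average, with control library 1 barely above Che-1-labelled library 3. Fos against Jun gave 0.385, 0.595 and 0.606 against 0.328, 0.229 and 0.146, or 2.33-fold. The same held for Fosl2, whose ratio to Junb was 0.203, 0.420 and 0.419 against 0.0608, 0.0781 and 0.189 (3.41-fold). Its ratio to Jun was 0.741, 1.28 and 1.199 against 0.543, 0.559 and 0.395 (2.12-fold). All 5 of these ratios were lower in each Che-1-labelled library than in any control, whereas Fosl2 against Jund overlapped (0.187 in control library 1, 0.246 in Che-1-labelled library 3). Of the ratios of Fosb to the JUN genes, that to Junb did not overlap (2.39-fold), and those to Jun and Jund did. Over all pairs of tested genes with reads in every library, the groups did not overlap in 38%.

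Junb gained on Dusp1 as well, with 3.71, 2.77 and 2.52 reads of Junb per read of Dusp1 in the controls and 11.3, 10.01 and 5.39 in the others (2.86-fold higher there). Ratios within a family overlapped between the groups in all 6 pairs, and their geometric means differed by 1.10-fold (Fos and Fosl2) to 1.61-fold (Jun and Junb). Fos against Fosl2 was 0.519, 0.465 and 0.506 in the controls and 0.604, 0.409 and 0.369 in the others, and Junb against Jund was 0.919, 1.35 and 1.27 against 1.41, 1.52 and 1.30.

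Egr1 and Junb were close to a constant ratio in the control libraries, with 4.34, 4.27 and 4.42 reads of Junb per read of Egr1. In the Che-1-labelled libraries it was 5.58, 5.35 and 10.009. Of the 45 pairs among the 10 genes, the groups did not overlap in 17, or 37.8%. Over all pairs of the 14450 tested genes with reads in every library the share was 38%, so such pairs were about as frequent among the 10 as among genes at large.

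**Figure D4:**
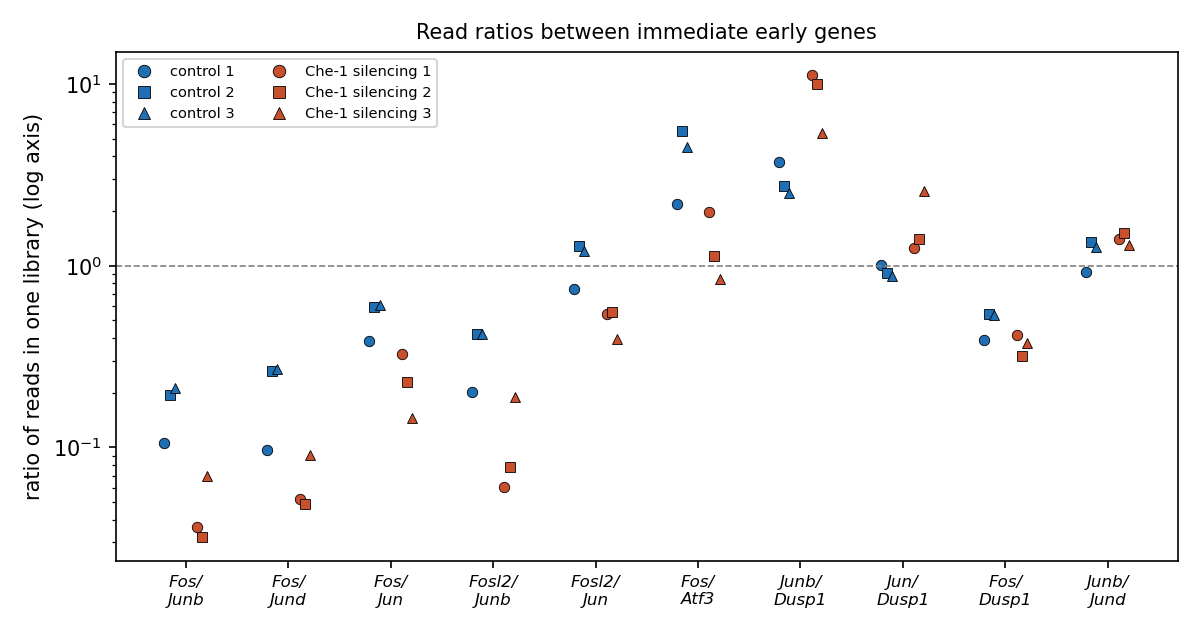
Ratio of reads between pairs of the 10 genes within each library (log axis), control in blue and Che-1 silencing in orange, with a dashed line at equal reads. The 5 FOS to JUN ratios drawn are lower in each orange library than in any blue one, while Fos to Dusp1 and Junb to Jund overlap. Fosl2 to Jund, Fosb to Jun and Fosb to Jund, which overlap, are not drawn, nor is Fosb to Junb, which does not.

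Levels can be compared between genes only per length, here as normalized counts per kilobase of merged exons (GENCODE M21, GRCm38, not the mm9 build of the counts). On the spike-in scale Jund (736 ± 138) and Junb (616 ± 38.9) led in the control libraries (SD, n = 3). Jund lay above Junb in each control library (884, 610 and 716 against 589, 598 and 660). Ier2 followed with 240.5 ± 28.2. Dusp1 (148 ± 35.9) and Jun (142 ± 25.1) changed order between libraries, and Fos (104 ± 39.1) lay under both in each control library. Egr1 (72.8 ± 3.56) lay under Fos in control libraries 2 and 3 and above it in control library 1. Fosl2 (51.3 ± 20.04), Atf3 (28.7 ± 5.60) and Fosb (3.72 ± 1.69) were lowest. Jund starts at 70698949 in this annotation, but the RefSeq window searched for it ends farther upstream, at 70697738. Its length, and so its rank in both groups, depends on the annotation.

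In the Che-1-labelled libraries Junb (2574 ± 1217) and Jund (2464 ± 1015) led (SD, n = 3), ahead of Ier2 (434 ± 109.6), Jun (345 ± 111), Egr1 (224 ± 146) and Dusp1 (197 ± 51.3). Fos (100.4 ± 14.3) was next to Atf3 (92.8 ± 32.8), then came Fosl2 (55.2 ± 14.4) and Fosb (6.72 ± 4.27). Junb lay above Jund in Che-1-labelled libraries 1 and 2 and under it in library 3, and so did Fos against Atf3.

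The annotation bears on single genes. In GRCm38, Fos (chr12:85473890-85477273) and Fosl2 (chr5:32135801-32157842) lie on the plus strand, and Fosb (chr7:19302696-19310051), Ier2 (chr8:84661331-84662852), Atf3 (chr1:191170296-191218039) and Dusp1 (chr17:26505590-26562128) on the minus strand. Jun, Jund and Ier2 have a single merged exon, so spliced and unspliced RNA cannot be told apart for them. On chromosome 8, Junb (84974484 to 84978718) overlaps Prdx2, a red cell antioxidant gene on the opposite strand, and whether counting used strand is not given in the sources used here. Prdx2 was at 6253, 1399 and 1619 normalized counts in the control libraries, against 3498, 7011 and 3021 in the others, with its highest relative level in control library 1, where Junb was lowest. Jun (chromosome 4, 95049034 to 95052222), Jund (chromosome 8, 70698949 to 70700616) and Atf3 each overlap a noncoding gene on the opposite strand, and Dusp1 overlaps Ergic1 there. The RefSeq windows of Dusp1 (26508473 to 26508722) and Atf3 (191183334 to 191183583) lie inside the spans given above, which reach farther upstream. Lengths and overlaps of these genes may therefore depend on the annotation too. Ergic1 differed by 0.38 log2 units on the relative scale (SE 0.13, limma adjusted p = 0.102), where Dusp1 differed by -1.12.

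Other genes of the pathway came from lists of related textbook roles. Among 12 tested bZIP genes of the AP-1 and MAF families outside the 10, 10 rose per spike-in (83.3%, against 66.7% of all tested genes) and 0 fell, with a median of 1.59 log2 units against 1.54 for all genes. Batf, a JUN partner of lymphocytes, had 219, 206 and 249 normalized counts in the controls and 1926, 3143 and 1157 in the others (relative difference 1.56, SE 0.22, limma adjusted p = 0.0723). Jdp2, a JUN-binding repressor, had 97.1, 152 and 172 against 1561, 2687 and 429 (1.62, SE 0.52, limma adjusted p = 0.0965). Atf7 and Mafk differed by -0.67 and -0.46 relative to the median gene. On the relative scale 3 of the 12, Batf and Jdp2 among them, were higher without overlap and 2 were lower. The shares over all tested genes were 20.5% and 19.7%. Fos and Fosl2 overlapped between the groups.

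Of 40 further immediate early genes tested, 23 rose per spike-in (57.5%, against 66.7% of all tested genes) and 0 fell, and 0 passed on the relative scale. Their relative median was -0.17 log2 units, and the groups did not overlap in 10 that were lower and 5 that were higher, against 19.7% and 20.5% of all tested genes. Cyr61, a matrix protein induced by growth factors, had 412, 566 and 658 normalized counts in the controls and 454, 576 and 240 in the others (relative difference -1.96, SE 0.35, limma adjusted p = 0.0723). Zfp36, which destabilises cytokine mRNAs, differed by -0.68 (SE 0.16). On the other side stood Gadd45b, a stress-induced growth arrest gene, with 263, 259 and 275 against 4070, 5841 and 803 (relative difference 1.79, SE 0.49, limma adjusted p = 0.0838), and Socs3, a brake on cytokine signalling (0.80, SE 0.20).

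MAP kinase phosphatases related to Dusp1 spread in both directions. Of 11 tested, 8 rose per spike-in (72.7%, near the 66.7% of all tested genes) and 0 fell. Dusp10, which acts on JNK and p38, had 334, 273 and 284 normalized counts in the controls and 6502, 10242 and 1020 in the others (relative difference 2.25, SE 0.57, limma adjusted p = 0.0787). Dusp14 differed by 1.39 (SE 0.53), Dusp7 by -0.71 (SE 0.24) and Dusp8 by -2.15 (SE 0.48).

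Of 32 genes of the MAP kinase cascade upstream, 19 rose (59.4%, against 66.7% of all tested genes) and 0 fell, and 0 passed on the relative scale. On that scale 9 were lower without overlap (28.1%) and 6 were higher, against 19.7% and 20.5% of all tested genes. The ERK kinase Map2k1 differed by 0.75 relative to the median gene (SE 0.19), the p38 isoform Mapk11 by -0.79 (SE 0.13), and the feedback inhibitors Spry2 and Spred2 by -1.57 (SE 0.37) and -0.69 (SE 0.19). Among 18 SRF, ETS and CREB regulators 11 rose (61.1%) and 0 fell. On the relative scale 8 of the 18 were lower without overlap (44.4%, against 19.7% of all tested genes) and 2 were higher (against 20.5%). Relative differences were 0.61 for the EGR corepressor Nab1 (SE 0.14) and -0.88 for the ETS factor Elk4 (SE 0.20). They were -0.78 for the CREB coactivator Crtc3 (SE 0.18) and -0.48 for the SRF coactivator Mkl2 (SE 0.11). Among 10 tested heat shock genes 7 rose (70%, against 66.7% of all tested genes) and 0 fell. Hsp90aa1 and Hspe1 differed by 1.03 and 0.75 relative to the median gene, whereas Hspa1a and Hspb1 differed by -1.90 and -1.86.

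Genes whose relative profile over the 6 libraries was nearest the mean profile of Fos, Junb and Dusp1 were Igfbp3, Ets2, Ahr, Cdh5 and Clstn1. Their root mean square distances ran from 0.036 to 0.156 log2 units among 7053 candidates. That reference is a compromise, as Dusp1, Fos and Junb themselves lay at 0.221, 0.435 and 0.634 from it. The reference was highest in control libraries 2 and 3 (0.74 and 0.80 log2 units). That all 5 were highest there too follows from how they were picked. Igfbp3, which binds insulin-like growth factors, was at 2.03, 3.31 and 3.31 log2 units above the median gene in the controls and at 2.22, 1.92 and 2.26 in the others. Cdh5, the cadherin of endothelial cells, was at 0.88, 2.14 and 2.09 against 0.70, 0.72 and 0.88.

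Markers of marrow cell types moved with these libraries. No marker was at 0 in all libraries, and Epx, an eosinophil granule gene, was at 0 in Che-1-labelled library 1. The summed level of 11 endothelial and stromal markers was 5.42 to 6.28 log2 units above the median gene in the controls and 4.91 to 5.43 in the others, with control libraries 2 and 3 highest as for Fosl2 and Dusp1. Of its 11 genes, 3 rose (27.3%, against 66.7% of all tested genes) and 1 fell per spike-in. A negative relative difference was found in 9 of them, against 49.2% of all tested genes.

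The 15 neutrophil markers summed to 4.17 to 5.23 in the controls and to 2.07, 3.39 and 5.29 in the others. Per spike-in 0 of them rose and 0 fell, against 66.7% and 0.746% of all tested genes. All 15 had a negative relative difference, against 49.2% of all tested genes. The 11 erythroid markers ran from 4.57 to 6.18 against 1.76 to 4.27, with 6.18 in control library 1 and 4.57 and 4.61 in control libraries 2 and 3. The 7 megakaryocyte markers ran from 4.05 to 4.11 against 1.93 to 5.02. The 9 eosinophil, basophil and mast cell markers ran from 1.51 to 1.97 against -0.23 to 1.505. Of the genes tested in these lists, 0 of 7 erythroid, 0 of 7 megakaryocyte and 1 of 8 eosinophil, basophil and mast cell genes rose per spike-in. The 15 monocyte and macrophage markers had a higher sum, from 5.73 to 6.59 against 6.78 to 6.99. Of these 15 genes 9 rose (60%, against 66.7% of all tested genes) and 1 fell, and 6 had a negative relative difference. B cell (6.25 to 6.51 against 6.30 to 6.71), plasma cell (4.23 to 4.81 against 4.59 to 5.40) and T and NK cell markers (4.23 to 4.38 against 4.39 to 4.45) varied less. The erythroid, B cell and plasma cell sums lack Slc4a1, Ms4a1 and Igj, abundant genes whose counts were not solved. Of the 11 erythroid genes summed, 7 reached the minimum mean, and the globin genes did not. The sums therefore describe the genes summed and not the whole content of these cells. The part of these cell types in the levels of the immediate early genes was not tested.

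**Figure D5:**
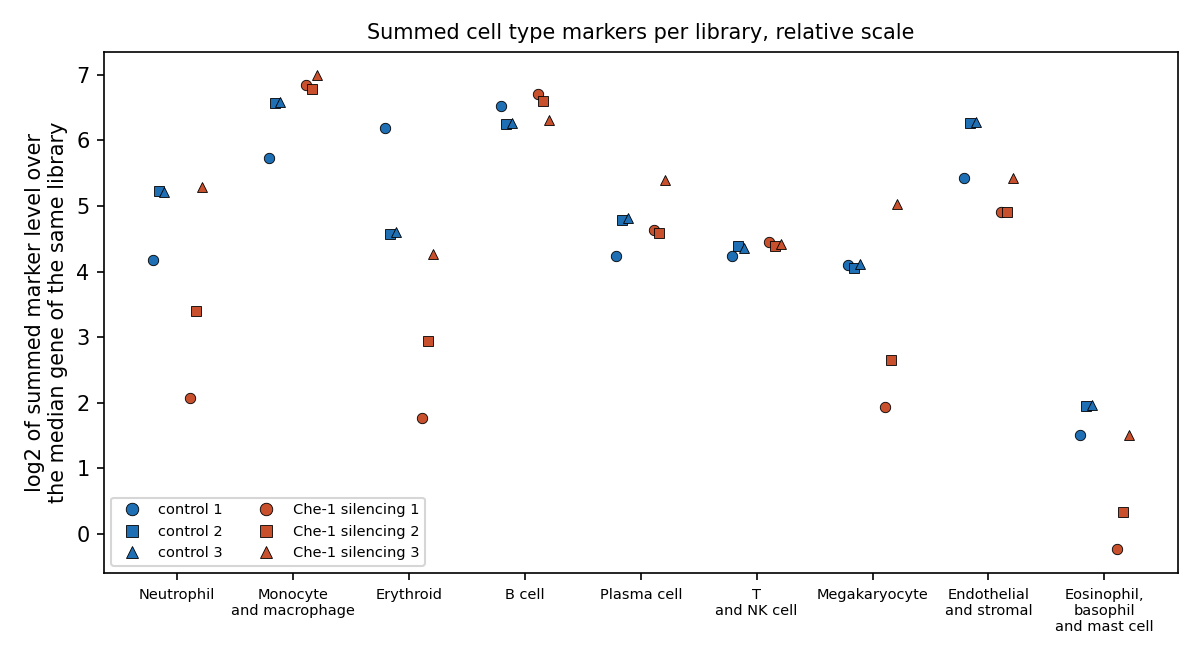
Log2 of the summed level of the genes with solved counts in each marker list over the median gene of the same library, control in blue and Che-1 silencing in orange. Neutrophil, erythroid and megakaryocyte sums are lowest in Che-1-labelled libraries 1 and 2, and endothelial and stromal sums are highest in control libraries 2 and 3.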

How the data were processed

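Total RNA libraries were stranded and depleted of ribosomal RNA, per the labels' protocols. TopHat, Cufflinks, Cuffdiff and HTSeq with build mm9 are named in the submitters' processing notes. The authors deposited spike-in counts (ERCC) for each library. Their gene table holds group means of counts over spike-in size factors (unit: signal), and the authors' fold (ratio), log2 fold and p-value, raw and adjusted, per the file headers.

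Counts per library were solved from the group means. Size factors were median ratios over 72 rows of the spike-in table (70 spike-ins and 2 summary rows). All 4739 control and 3330 Che-1 silencing means above 0 and below 50 matched exactly 1 set of 3 whole counts (relative tolerance 1e-15 plus 0.55 of the last digit), against 0 with factors from spike-ins alone. In all 17076 genes (99.4%) were solved, including the 10 described. The other 97, with means of 10713 or more, were not tested.

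Since the table held normalized values, the main test was limma 3.58.1 (R 4.3.3) on log2(normalized count + 1), with a group term and mean trend, for the 14604 genes whose mean was 10 or more. Benjamini-Hochberg adjustment was over all of them. The spike-in fit had infinite prior degrees of freedom: its SEs rest on a spread shared across genes. edgeR 4.0.16 and DESeq2 1.42.0 on the solved counts were alternatives. Fold changes on the log2(value + 1) scale understate low genes. All 10 genes passed the filter. Fits were also run on counts simulated with the same dispersion for every gene and no outlying library. Those runs therefore do not show how the fits behave with libraries as uneven as these. The genes and lists were chosen with earlier results of these data known. From each list, up to 4 genes with the lowest p on the relative scale were to be named. Genes of like pattern were the 5 nearest to the mean profile of Fos, Junb and Dusp1 at or above the median level. Marker lists are given by counts and sums.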

Additional observations from a re-analysis of the deposited data

How the results depend on the processing

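Settings tried on the spike-in scale included both other pseudocounts, both other filters, edgeR, DESeq2, no mean trend and total spike-in reads as factors. Under them 57.6% to 72.6% of all tested genes rose. The count of rises among the 10 genes was 5 under each of these. It was 0 with each gene's own spread, 2 with the replicate number as a block (Junb and Atf3, where 46.0% of all tested genes rose), 1 with control libraries 2 and 3 summed, and 1 to 5 when a library was left out. The replicate numbers do not pair the libraries (same-number correlations of deviations 0.17, -0.15 and 0.18), and not every library correlated best with its own number. No gene fell under any alternative. On the relative scale 0 genes were higher under every alternative. The count of lower genes was 4 by DESeq2, 0 to 4 when a library was left out, and 0 under the other alternatives, replicate block, TMM and median-ratio centring included.

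Values near 0 changed sign, none of them called. On the spike-in scale the log2 difference of Fos was -0.054 by edgeR, -0.055 by DESeq2, -0.32 without control library 1 and -0.083 without Che-1-labelled library 2, and that of Fosl2 was -0.22 and -0.011 without the same libraries. Over single libraries left out, Fos reached at most 0.26 and Fosl2 0.39. On the relative scale Atf3 was -0.067 without control library 1 and -0.38 without Che-1-labelled library 3, Egr1 was 0.21 without the latter, and Jund was -0.015 without Che-1-labelled library 1. The other ends of these ranges were 0.40 for Atf3 and -0.50 for Egr1, both without Che-1-labelled library 1. The cause was not tested. Of 169 single-gene values on the spike-in scale 134 kept direction and side of the threshold, and of 179 on the relative scale 167. Fosb had the fewest reads of the 10, 11 to 74 per library, so that relative counting error is largest for it, and it was not tested at a minimum mean of 50.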
